A study of Homo sapiens with 6 samples.

Results

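The genes described here encode the lysosome's enzymes, its limiting-membrane proteins, its proton pump and the transcription factors that act on lysosomal genes. The rows of the deposited count table whose gene symbol was on this list were taken, which gave 43 genes of 40205. RNA-seq compared an untreated Control group of 3 samples with a CLs group of 3, which had been given cationic liposomes, and samples are numbered 1 to 3 within a group. All 6 were cells labelled HepG2, a human liver cancer line, grown in plates in serum-containing medium. The CLs were made of the cationic lipid DOTAP, cholesterol and a PEG-bearing phospholipid, and exposure lasted 24 h at 120 μM by the sample labels, where the paper's Discussion gives the concentration as 120 μg/ml. The comparison asked whether mRNA of these lysosomal genes differed after exposure to liposomes. The paper calls the 6 samples independent, but the labels do not say that they came from separate cultures, so the p-values measure the spread between these samples, which may be technical. In bulk samples, fewer cells of a type and less RNA per cell cannot be told apart.

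Lysosomes break down material that arrives by endocytosis and autophagy, and liposomes taken up by cells pass along the same route. Acid hydrolases such as the cathepsins and glycosidases work in an acid lumen, which the V-ATPase maintains by pumping protons with its membrane-embedded V0 sector, driven by ATP hydrolysis in its cytosolic V1 sector. TFEB, TFE3 and MITF are related transcription factors of the MiT-TFE family. When released from inhibition at the lysosome surface they enter the nucleus and activate many lysosomal genes through a palindromic E-box, the core of the CLEAR element.

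That core sequence was looked for in front of the genes, and the 10 places where it was found are shown. They tell which of the genes searched hold this exact sequence near an annotated start. RefSeq windows from 250 bases before to 50 bases after annotated starts (build GRCh38.p14, whereas the submitters' processing notes name hg19) were at hand for 32 of the 43 genes. LAMP2, CTSB, CTSS, HGSNAT, MANBA, NAGLU, ATP6V0E1, ATP6V1A, ATP6V1B2, ATP6V1C1 and ATP6V1H had no window and were not searched. Both strands were searched, although the motif reads the same on each. Capitals mark TCACGTGA, and each 30-base stretch is written 5′ to 3′ on the gene's strand.
LAMP1 (chr13:113297199-113297228, + strand): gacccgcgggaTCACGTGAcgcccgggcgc
LAMP1 (chr13:113297226-113297255, + strand): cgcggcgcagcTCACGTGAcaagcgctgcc
MCOLN1 (chr19:7522571-7522600, + strand): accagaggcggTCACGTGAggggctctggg
MCOLN1 (chr19:7522598-7522627, + strand): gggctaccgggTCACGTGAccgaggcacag
CLN3 (chr16:28492058-28492087, - strand): cgcgggtgctgTCACGTGAtccgacaaacg
CTSA (chr20:45891298-45891327, + strand): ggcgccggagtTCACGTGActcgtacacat
GAA (chr17:80101493-80101522, + strand): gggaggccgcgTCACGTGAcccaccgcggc
GAA (chr17:80101538-80101567, + strand): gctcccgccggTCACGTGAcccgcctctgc
ATP6V0D1 (chr16:67481199-67481228, - strand): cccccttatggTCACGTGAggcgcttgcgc
ATP6V1G1 (chr9:114587699-114587728, + strand): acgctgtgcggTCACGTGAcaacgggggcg

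The motif occurred in 7 of the 32 genes (21.9%), against 321 of 27305 genes (1.18%) in all windows of that length. Those 27305 genes were not matched to the lysosomal genes in expression or GC content, so the 2 shares are given as a description only. Its first base lay between 77 bases before the annotated start, in GAA, and 2 bases before it, in LAMP1 and CLN3. A second CLN3 start put the same copy just inside the transcript. The shorter CACGTG, which lies within TCACGTGA, was found in 10 of the 32 genes and in 8.77% of all genes. A match describes the letters of these windows and not the binding of a factor.

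The libraries held 11418527 to 13998946 counts, and 15047 genes had enough reads to be tested. Values are given as CPM, the count relative to the TMM-scaled library total, with SD over 3 samples. Hepatocyte markers were near 0, against the HepG2 label. Over 13 hepatocyte markers other than keratins, among them ALB, AFP, APOB, TTR and HNF4A, the summed raw counts were 5, 18 and 17 in Control-1 to Control-3 and 94, 3 and 1 in CLs-1 to CLs-3, and these 13 were all under 1 CPM outside CLs-1. The epithelial keratins KRT8 and KRT18 stood between 1515 and 2516 CPM in the Control group and between 679 and 1003 CPM in the CLs group, and the fibroblast collagen COL3A1 was between 647 and 974 CPM in all 6. CLs-1 stood apart: it alone had more than a few reads of HBB (22.4 CPM), STAR (20.1 CPM) and COL1A2 (72.3 CPM). Summed marker levels ran from 14.4 to 18.7 CPM (Control) and 21.1 to 57.7 CPM (CLs) for 12 blood and leukocyte genes, and from 0.955 to 2.76 CPM and 2.59 to 38.4 CPM for 7 steroidogenic genes. They ran from 714 to 1077 CPM and 793 to 935 CPM for 8 fibroblast genes, and from 0.259 to 3.69 CPM and 0.0864 to 0.438 CPM for 6 endothelial genes. In every library but CLs-1, 10 of the 12 blood and leukocyte genes and 6 of the 7 steroidogenic genes were under 1 CPM. So were 6 of the 8 fibroblast and 5 of the 6 endothelial genes. The exceptions were CD68 and CSF1R, CYP11A1, COL1A1 and COL3A1, and CDH5. CD68 alone was at 17.2, 12.9 and 14.8 CPM in the Control group and at 20.1, 16.9 and 23.2 CPM in the CLs group. Its log2 fold change was 0.43 (edgeR adjusted p = 0.832). Outside CLs-1, CD68 made up most of the blood and leukocyte sum, so that sum mainly followed this 1 gene. In all 6 libraries, 6 of the 12 blood and leukocyte genes, among them PTPRC, CD14 and LYZ, were under 1 CPM. The part of other cells' RNA in the results below was not tested.

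Of the 43 genes, 42 passed the filter on low counts. CTSS, a cysteine protease of antigen-presenting cells, had 1, 2 and 0 counts in the Control group and 3, 0 and 1 in the CLs group, at or under the floor of 3 counts per library, and no fold change is given for it. No gene passed an adjusted p under 0.05 with a fold change above 1.5 or below 0.67 by the quasi-likelihood test of edgeR, with adjusted p-values by Benjamini and Hochberg over the 15047 genes, where 0.0133% of all tested genes were called higher and 0.0731% lower. The adjusted p-values of the 42 lay between 0.351 and 0.999. DESeq2 also called none. At an unadjusted p under 0.05, 3 genes were higher (2.19% of all tested genes were) and 1 was lower (3.62% of all). The 3 libraries of one group lay entirely beyond those of the other in 6 genes with the CLs group higher (5.34% of all tested genes) and in 2 with it lower (6.18%).

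The fold changes were small. The log2 fold change of CLs over Control was above 0 in 34 of the 42 genes (52.1% of all tested genes), with a median of 0.084 against 0.010 over all tested genes, and it ranged from -0.61 to 0.57. With a library left out, the genes above 0 numbered 25 (without CLs-2), 27 (without Control-1), 28 (without CLs-3) or 31 to 33, and 22 of the 42 turned sign in at least 1 of the alternatives. The 95% interval stayed within a fold change of 0.67 to 1.5 in 30 of the 42. Its median half-width was 0.35 on the log2 scale, which is the precision that 3 libraries per group gave here. The summed CPM of the 42 genes was 4792 ± 42.4 in the Control group and 5181 ± 490 (SD, n = 3 each) in the CLs group. CLs-1, at 4703 CPM, was below every Control library, and CLs-2, at 5681 CPM, was the highest of all 6.

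**Figure D1:**
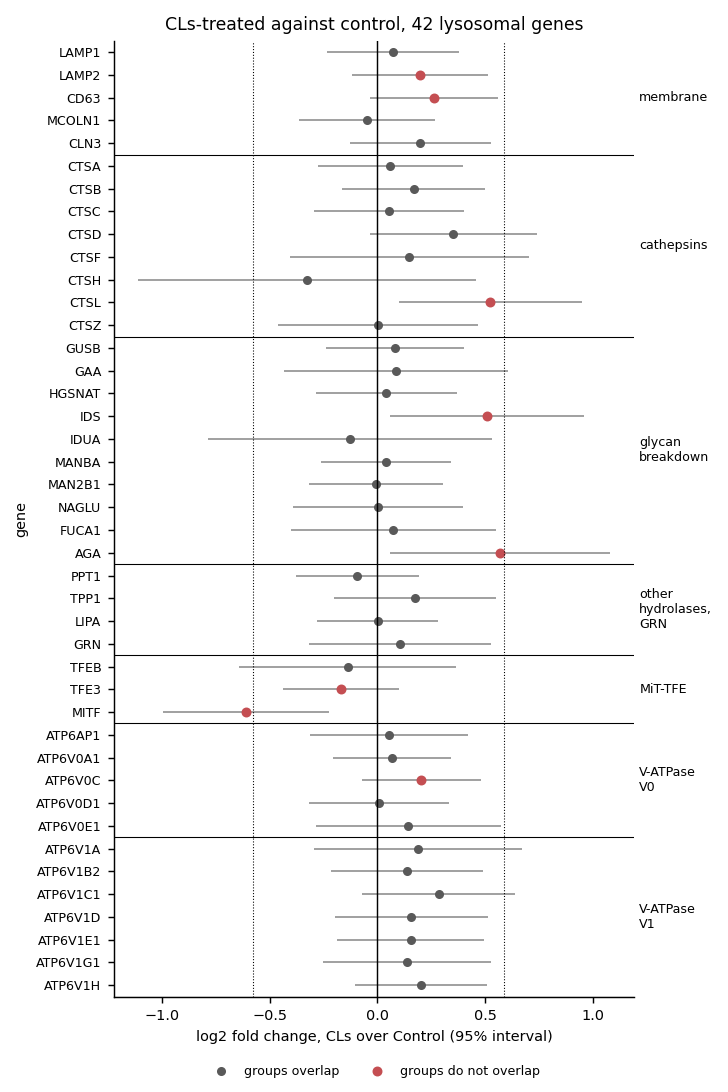
Log2 fold change of CLs over Control (horizontal axis) with its 95% interval for the 42 lysosomal genes that passed the filter, in 7 role groups; red points mark genes whose groups of 3 libraries do not overlap and dotted lines mark folds of 0.67 and 1.5. The points run from -0.61 (MITF) to 0.57 (AGA), and 30 of the 42 intervals lie between the dotted lines.

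The MiT-TFE factors differed widely in level. Per kilobase of exons in the Control group, TFE3 stood at 37.2 ± 0.589 CPM, MITF at 11.6 ± 2.03 CPM and TFEB, the best known regulator of lysosomal genes, at 1.98 ± 0.435 CPM (SD, n = 3). The 3 levels were apart by more than their spread. TFE3 made up 73.3% of the sum of the 3 and TFEB 3.89%. In the CLs group the shares were 77.9% for TFE3, 17.9% for MITF and 4.22% for TFEB. The length used is that of all annotated exons of a gene together, which can exceed that of any single transcript. The shares therefore depend on the annotation.

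MITF, known mainly as the regulator of pigment cells and also active on lysosomal genes, had the smallest p of all 42. Its level was 84.8, 67.5 and 60.7 CPM in Control-1 to Control-3 and 56.5, 42.1 and 40.7 CPM in CLs-1 to CLs-3. All CLs libraries were below all Control libraries, although CLs-1 came close to Control-3. The log2 fold change was -0.61 (standard error 0.17, 95% interval -0.996 to -0.23), with an unadjusted p of 0.00491 and an adjusted p of 0.351 by edgeR's quasi-likelihood test. MITF was the only one of the 42 with a fold change outside 0.67 to 1.5, and it passed the adjusted threshold under a single one of the alternatives run, which joined a correction for GC content with the replicate number as a block (log2 fold change -0.66, edgeR adjusted p = 0.0273). That alternative was chosen after seeing the data.

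TFE3, which is broadly expressed, was at 127, 129 and 125 CPM in the Control group and 106, 114 and 119.6 CPM in the CLs group. The groups did not overlap, but the difference was small (log2 fold change -0.17, standard error 0.12, edgeR adjusted p = 0.971). With the correction for GC content the TFE3 groups overlapped (log2 fold change -0.11, edgeR adjusted p = 0.915). TFEB was at 6.77, 9.07 and 10.6 CPM in the Control group against 6.78, 9.08 and 8.24 CPM in the CLs group. Here the libraries of both groups intermingled (log2 fold change -0.14, 95% interval -0.64 to 0.36, edgeR adjusted p = 0.998), and without Control-3 the log2 fold change was 0.017.

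The 7 genes with TCACGTGA in their windows had log2 fold changes from -0.048 in MCOLN1 to 0.20 in CLN3, with 6 of 7 above 0 and a median of 0.071. The 25 genes whose windows lacked it had a median of 0.074, with 18 above 0.

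**Figure D2:**
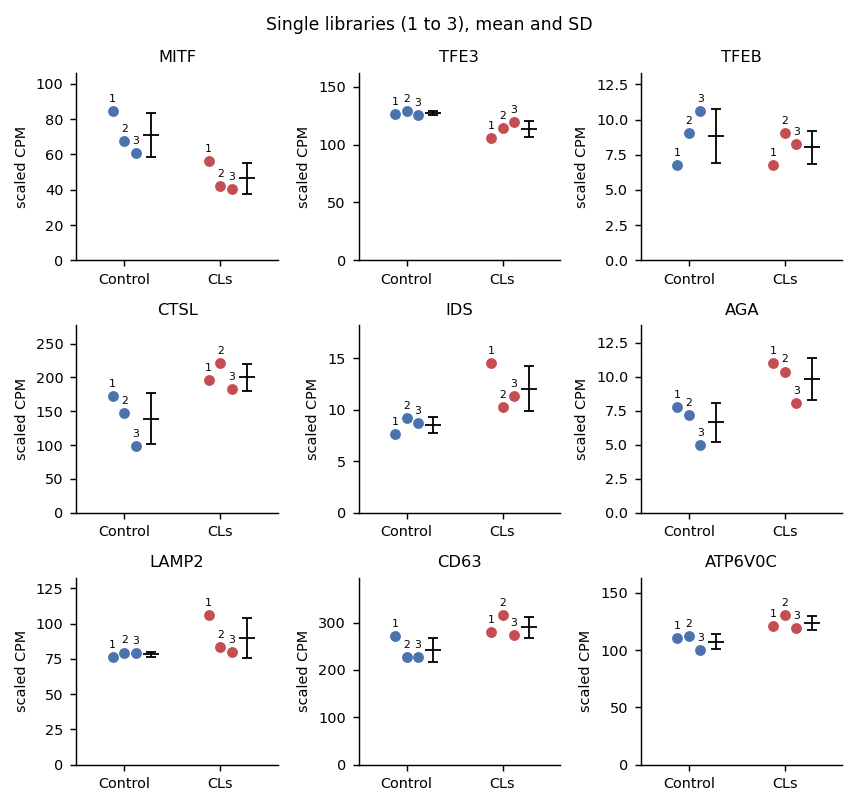
CPM after TMM scaling (vertical axis, from 0) of 9 lysosomal genes in single libraries, numbered 1 to 3, for Control (blue) and CLs (red), with the mean and SD of each group in black. MITF and TFE3 are lower in all 3 CLs libraries and TFEB overlaps. The other 6 are all the tested lysosomal genes with every CLs library above every Control library (5.34% of all tested genes), so they show this by selection.

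Among the cathepsins, the proteases of the lysosome, 7 of 8 tested genes had log2 fold changes above 0, with a median of 0.10. CTSL, a cysteine endopeptidase, was at 173, 147 and 97.8 CPM in Control-1 to Control-3 and at 196, 222 and 182 CPM in CLs-1 to CLs-3. All CLs libraries were above all Control libraries, and Control-3 was far below the rest. The log2 fold change was 0.52 (standard error 0.19, unadjusted p = 0.0196, edgeR adjusted p = 0.666), and without Control-3 it was 0.32.

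CTSZ, a carboxypeptidase, had the highest level per kilobase of all 43 genes, 305 ± 46.3 CPM in the Control group and 305 ± 87.8 CPM in the CLs group. Its libraries stood at 398, 437 and 532 CPM in the Control group and at 305, 521 and 543 CPM in the CLs group. CLs-1 was the lowest of the 6 and CLs-3 the highest, so the mean difference of 0.0019 on the log2 scale (standard error 0.21, edgeR adjusted p = 0.999) covered a wide spread. CTSD, an aspartic protease, also had CLs-1 as the lowest of the 6 libraries. It is named here after its values were seen: 388, 424 and 377 CPM in the Control group and 373, 603 and 541 CPM in the CLs group. CLs-2 and CLs-3 were above all Control libraries and CLs-1 was below them. The log2 fold change was 0.35 (edgeR adjusted p = 0.889) with all libraries and 0.53 (unadjusted p = 0.00198, edgeR adjusted p = 0.253) without CLs-1. With all libraries and the correction for GC content, chosen after seeing the data, CTSD was at 0.39 (edgeR adjusted p = 0.515). All CLs libraries were then above all Control libraries. The other cathepsins tested, CTSA, CTSB, CTSC, CTSF and CTSH, lay between -0.33 (CTSH, at 1.91 to 4.03 CPM) and 0.17 (CTSB). The summed cathepsin level was 1303, 1351 and 1382 CPM in the Control group and 1203, 1763 and 1660 CPM in the CLs group.

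Of the 10 enzymes that break down glycans and glycosaminoglycans, 8 had log2 fold changes above 0 and the median was 0.057. IDS, the sulfatase that begins the breakdown of heparan and dermatan sulfate, was at 7.64, 9.15 and 8.66 CPM in the Control group and at 14.5, 10.3 and 11.3 CPM in the CLs group. AGA, which cleaves the bond between asparagine and a sugar, was at 7.73, 7.17 and 4.97 CPM in the Control group and at 11.01, 10.4 and 8.06 CPM in the CLs group. In both genes all CLs libraries lay above all Control libraries, with CLs-1 the highest. For IDS the log2 fold change was 0.51 (standard error 0.20, unadjusted p = 0.0297, edgeR adjusted p = 0.759). For AGA it was 0.57 (standard error 0.23, unadjusted p = 0.0321, edgeR adjusted p = 0.768). Without CLs-1 the log2 fold change was 0.35 for IDS (edgeR unadjusted p = 0.0966) and 0.48 for AGA (edgeR unadjusted p = 0.0870). A pseudogene row of IDS held 0 reads in each Control library and 1, 3 and 6 in CLs-1 to CLs-3, at most 4.65% as many as IDS itself.

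GUSB, the beta-glucuronidase often used as a reference gene, had the highest mean CPM of this group. It stood at 101, 104 and 113 CPM in the Control group and at 96.2, 131 and 109.5 CPM in the CLs group, which overlapped (log2 fold change 0.081, standard error 0.14, edgeR adjusted p = 0.998). Its counts are uncertain, because 11 pseudogene rows of the table held between 29.9% and 36.1% as many reads as GUSB in these libraries. GAA, HGSNAT, IDUA, MANBA, MAN2B1, NAGLU and FUCA1, which act on glycogen, heparan sulfate, mannose- and fucose-bearing chains, lay between -0.13 (IDUA) and 0.086 (GAA).

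PPT1, TPP1 and LIPA, which remove thioester-bound lipids from proteins, trim tripeptides and hydrolyse cholesteryl esters and triglycerides, and GRN, whose product progranulin supports lysosomal enzymes, had a median log2 fold change of 0.052. PPT1 was at 333, 338 and 391 CPM in the Control group and at 344, 331 and 321 CPM in the CLs group. The groups overlapped, and the log2 fold change was -0.093 (standard error 0.13, edgeR adjusted p = 0.998), and -0.016 without Control-3. Part of the PPT1 exons, 27.3%, is shared with CAP1 on the opposite strand in the annotation. LIPA, the acid lipase that frees cholesterol from the esters that lipoproteins bring in, had means of 51.7 ± 0.882 CPM and 51.7 ± 3.69 CPM (SD, n = 3 each). Its log2 fold change was 0.00061 with a 95% interval from -0.28 to 0.28. TPP1 and GRN stood at 0.17 and 0.10.

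The limiting membrane is lined by heavily glycosylated proteins, of which LAMP1 and LAMP2 are the most abundant. Of the 5 membrane genes, 4 had log2 fold changes above 0 and the median was 0.20. LAMP1 was at 353, 369.9 and 308 CPM in the Control group and at 339.7, 404 and 339.7 CPM in the CLs group. The groups overlapped (log2 fold change 0.071, standard error 0.14, edgeR adjusted p = 0.998). LAMP2, which also serves chaperone-mediated autophagy, was at 76.2, 79.5 and 79.2 CPM in the Control group and at 106, 83.4 and 79.6 CPM in the CLs group. The groups just failed to overlap, with CLs-3 level with the upper Control libraries and CLs-1 well above the rest. For LAMP2 the log2 fold change was 0.20 (standard error 0.14, edgeR adjusted p = 0.971), and 0.056 without CLs-1.

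CD63, a tetraspanin of late endosomes and exosomes, was at 271, 228 and 227 CPM in the Control group and at 279.8, 316 and 274 CPM in the CLs group. All CLs libraries were above all Control libraries, narrowly so against Control-1, and the log2 fold change came to 0.26 (standard error 0.14, 95% interval -0.035 to 0.56, edgeR adjusted p = 0.892). MCOLN1, the calcium channel of the lysosomal membrane, was at -0.048 and CLN3, a membrane protein mutated in Batten disease, at 0.20 on the log2 scale, each with overlapping groups.

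All 12 V-ATPase genes had log2 fold changes above 0, with a median of 0.15 and a range of 0.0058 to 0.28. None had an edgeR adjusted p under 0.926, and in 10 of the 12 the 95% interval stayed within a fold of 0.67 to 1.5. In the Control group, Control-3 was the lowest library in 11 of the 12 genes. The summed level was 1427, 1376 and 1116 CPM in Control-1 to Control-3 and 1394, 1539 and 1352 CPM in CLs-1 to CLs-3. Without Control-3, 8 of the 12 genes were above 0 and the median was 0.013. With any other library left out, 10 to 12 genes were above 0 and the median lay between 0.077 and 0.24.

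In the V0 sector, ATP6V0C, the proteolipid of the proton-carrying ring, was at 110.3, 112 and 99.8 CPM in the Control group and at 121, 131 and 119 CPM in the CLs group. All CLs libraries were above all Control libraries, by a narrow margin (log2 fold change 0.20, standard error 0.13, edgeR adjusted p = 0.945). ATP6AP1, an accessory and assembly subunit with the highest mean CPM of its sector, was at 308, 314 and 247 CPM in the Control group and at 241, 352 and 310.2 CPM in the CLs group. Control-3 and CLs-1 were low and the groups overlapped (log2 fold change 0.054, standard error 0.17, edgeR adjusted p = 0.998). ATP6V0A1, ATP6V0D1 and ATP6V0E1 lay between 0.0058 and 0.14.

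In the V1 sector, ATP6V1E1, part of the peripheral stalk, had the highest mean CPM, with 171, 164 and 127 CPM in the Control group and 164, 195 and 154 CPM in the CLs group. Control-3 was the lowest library and the groups overlapped (log2 fold change 0.15, standard error 0.16, edgeR adjusted p = 0.998), with 0.033 left without Control-3. Pseudogene rows held between 8.62% and 12.3% as many reads as ATP6V1E1. The other 6 V1 genes lay between 0.14 and 0.28. ATP6V1C1 was the highest. ATP6V1A, which carries the ATP-hydrolysing site and is named after its values were seen, was at 56.0, 69.9 and 74.9 CPM in the Control group and at 107, 57.9 and 64.1 CPM in the CLs group. CLs-1 was far above the other libraries and the groups overlapped (log2 fold change 0.19, edgeR adjusted p = 0.998). Without CLs-1 the log2 fold change of ATP6V1A was -0.13.

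**Figure D3:**
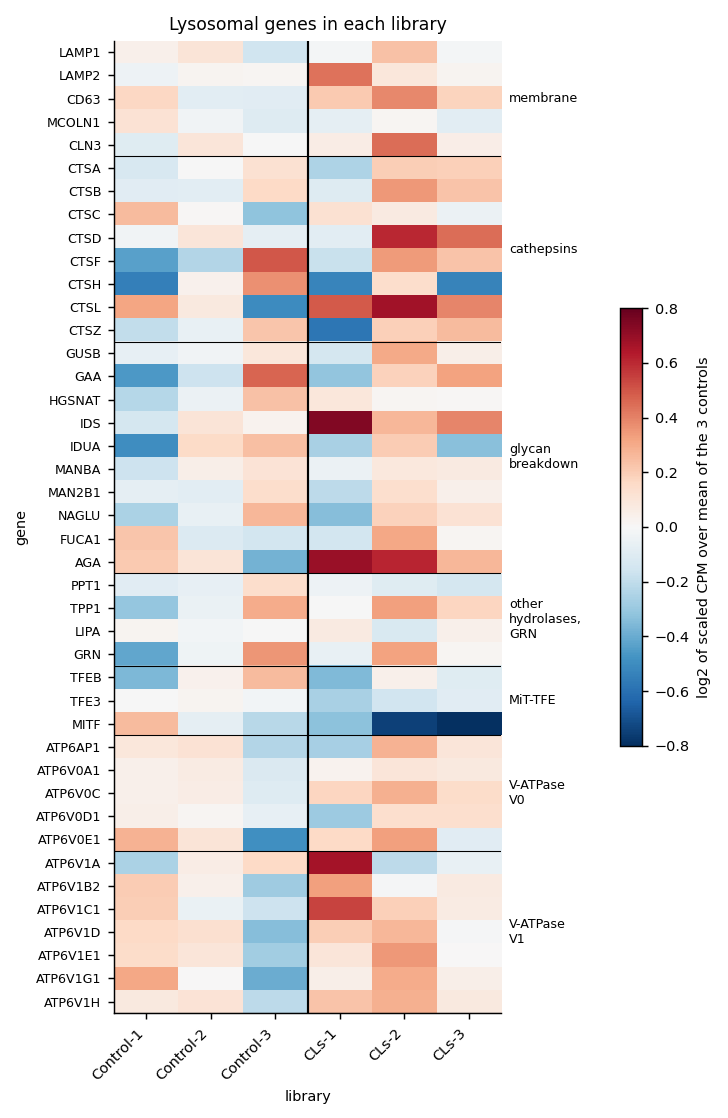
Log2 ratio of CPM in each library (columns) to the mean of the 3 Control libraries, both with 0.5 CPM added, for the 42 tested lysosomal genes (rows, in role groups); red is higher and blue lower. Control-3 is blue over most V-ATPase rows, being the lowest Control library in 11 of 12, and CLs-2 is the highest CLs library in 28 of the 42 genes.

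Libraries of the same group also differed among themselves. In the Control group, Control-1 was the lowest library in 19 and Control-3 in 21 of the 42 genes, while Control-2 was the lowest in 2. In the CLs group, CLs-2 was the highest in 28 genes, and CLs-1 and CLs-3 were each the lowest in 19. The order moved with the GC content of the transcripts. Across the 42 genes, which share libraries and depth, Spearman's rho between a library's log2 deviation from its group mean and GC content was -0.78 for CLs-1, 0.59 for CLs-2 and 0.54 for CLs-3. It was -0.51 in Control-1, -0.13 in Control-2 and 0.51 in Control-3. Over 13182 tested genes with a known GC content, it was -0.60, 0.46 and 0.34 in the CLs libraries and between -0.086 and 0.092 in the Control libraries. The deviations of a gene within a group cancel out, so the rho values of a group are not independent of each other. Whether a GC trend lies in CLs-1 or in CLs-2 and CLs-3, or in Control-1 or Control-3, cannot be read from these values.

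CLs-1 was below its group mean in all 21 of the lysosomal genes with the higher GC content (52.8% to 68.2%), with a median deviation of -0.22, and in 7 of the other 21 (39.1% to 50.7%), with a median of 0.051. In Control-3 the medians were 0.13 for the genes of higher GC content and -0.16 for the others. CTSZ, GAA and CTSD, rich in GC, had their lowest CLs value in CLs-1, and ATP6V1A, LAMP2 and AGA, poor in GC, had their highest CLs value there. With the GC content corrected in each library, an alternative chosen after seeing the data, no lysosomal gene passed the adjusted threshold and 34 of the 42 were above 0, though 4 genes turned sign. The part of GC content in any single fold change was not tested further.

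**Figure D4:**
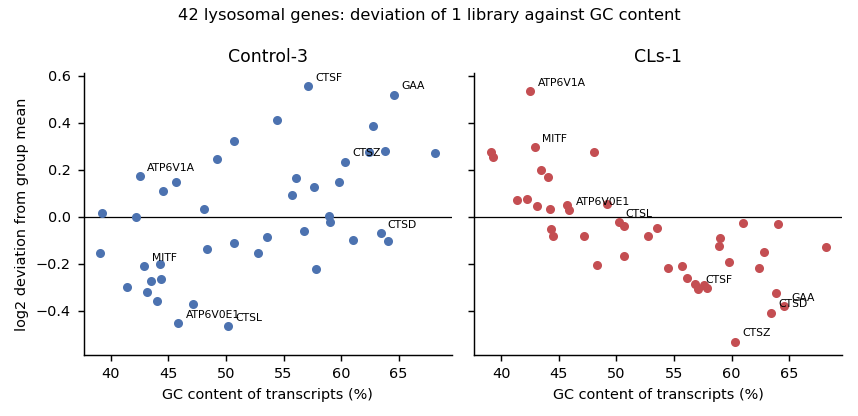
Log2 deviation of Control-3 (left) and CLs-1 (right) from the mean of their group (vertical axis) against the GC content of the transcripts in percent (horizontal axis) for the 42 lysosomal genes, 1 point per gene. The points fall from left to right in CLs-1 (rho -0.78) and rise in Control-3 (rho 0.51).

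Levels per kilobase spanned a wide range. In the Control group CTSZ was followed by CTSD at 187 ± 11.4 CPM per kilobase, LAMP1 at 127 ± 11.9, GRN at 114 ± 30.3 and ATP6V1E1 at 109.7 ± 16.9 (SD, n = 3). From LAMP1 down to the next gene CD63, at 105 ± 10.9, neighbours in this order did not differ beyond their spread. At the low end were TFEB, IDUA at 1.59 ± 0.452, CTSH at 1.38 ± 0.485 and IDS at 1.00 ± 0.0912, and neighbours among these 4 did not differ beyond their spread either.

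**Figure D5:**
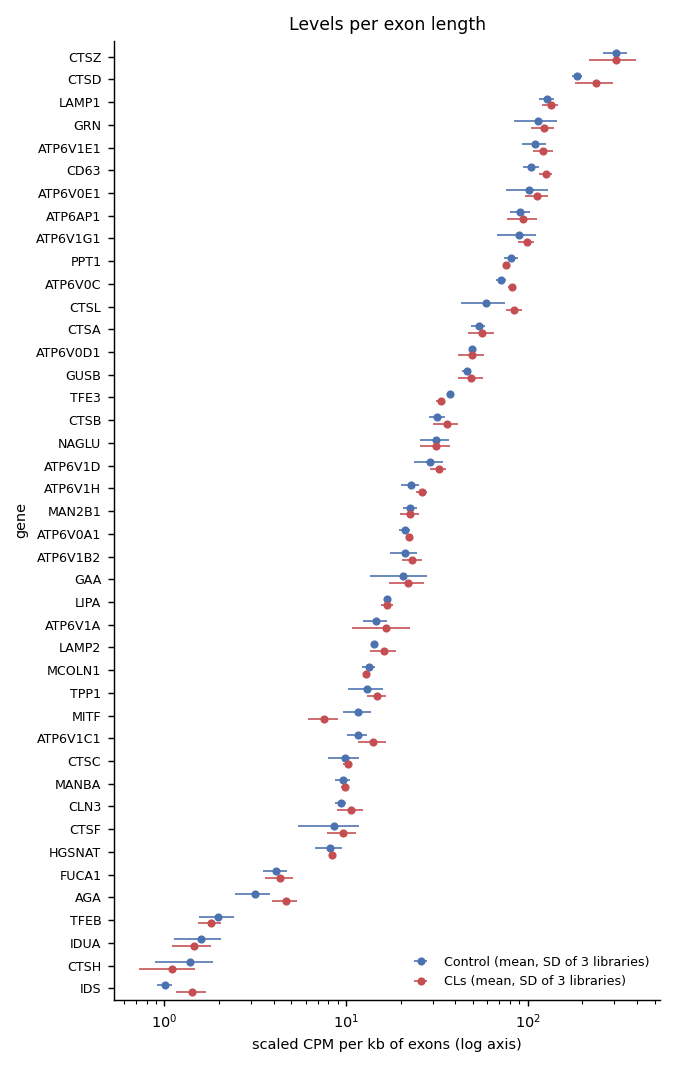
Mean CPM per kilobase of exons (horizontal log axis) for the 42 tested lysosomal genes, ordered by their Control level, with SD over 3 libraries for Control (blue) and CLs (red). CTSZ is highest at 305 and IDS lowest at 1.00 in the Control group, the SD bars of MITF do not meet, and those of LAMP1 do.

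A wider list of 99 other lysosomal genes held further hydrolases, membrane transporters, sorting receptors, V-ATPase subunits and regulators of TFEB at the lysosome. Of these, 90 passed the filter and none was called by edgeR's quasi-likelihood test at an adjusted p under 0.05 with the fold criterion. Their median log2 fold change was 0.084, with 65 above 0 and 25 below. Over all tested genes the median was 0.010, and 52.1% were above 0. At an unadjusted p under 0.05, 3 were higher and 2 lower, beside 2.19% and 3.62% of all tested genes.

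The 3 higher ones came from the sublist of hydrolases and their activators. Among them GGH, which trims folate polyglutamates, was at 55.4, 58.4 and 46.2 CPM in the Control group and at 80.9, 69.4 and 57.6 CPM in the CLs group. CLs-1 and CLs-2 were above all Control libraries and CLs-3 was within their range (log2 fold change 0.38, standard error 0.16, edgeR adjusted p = 0.790).

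The 2 lower ones had few reads. LAMP3, a LAMP family protein of limited tissue distribution, was at 5.99, 4.49 and 4.20 CPM in the Control group and at 2.77, 1.64 and 3.85 CPM in the CLs group. The groups did not overlap (log2 fold change -0.83, edgeR adjusted p = 0.723). ATP6V0A4, a V0 subunit found mainly in acid-secreting cells, was at 3.99, 4.58 and 1.89 CPM against 2.49, 1.99 and 0.964 CPM, with overlapping groups (log2 fold change -0.92, edgeR adjusted p = 0.845).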

How the data were processed

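Total RNA of 6 samples was sequenced in single-end reads on the Ion Proton platform. The authors mapped filtered reads with MapSplice, and the submitters' processing notes name HTSeq 0.6.1 and hg19 (GRCh37). They deposited whole-number counts of reads per gene symbol without normalization. The strand setting of the counting and the treatment of reads with several matches are not given in the sources used here. All per-sample columns of the table were used (0 left out).

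Counts were tested with the edgeR 4.0.16 quasi-likelihood test in R 4.3.3, on condition alone, after filterByExpr and TMM scaling, with Benjamini-Hochberg adjustment over 15047 genes. The call needed an adjusted p under 0.05 together with a fold above 1.5 or below 0.67. Floors of 3 counts and 95% intervals were used; floors cover counting error only. The depth was 11418527 to 13998946 counts per sample, and for 1 gene at a time an exact permutation test, two-sided, could reach no smaller p than 0.1. The scripts were tested on simulated data.

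Per-sample values were given for genes with an unadjusted p under 0.05 or with groups that did not overlap, for TFEB, TFE3 and MITF, and for the gene with the highest mean CPM in each role group. From the wider list, up to 3 genes of each sublist with the smallest unadjusted p under 0.05 were named. Some of these are not reported here. CTSD and ATP6V1A are exceptions, named after their values were seen. Members, lists and rules were chosen with earlier results of these data known. Exon lengths and GC content came from GENCODE transcripts (GRCh38), matched by symbol, and promoter windows from RefSeq (GRCh38.p14). Of the 43 genes, 6 have exons that overlap another protein-coding gene of the table.

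The alternatives were DESeq2 1.42.0, its size factors in edgeR, library totals alone, no filter, a stricter filter, a block for the replicate number, leaving out 1 sample at a time, and no fold criterion. A GC content correction by lowess offsets, with and without the block, was added after seeing the data. The cell viability, qRT-PCR and cell cycle measurements were not analysed here.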

Additional observations from a re-analysis of the deposited data

How the results depend on the processing

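With 3 libraries per group the median half-width of the 95% interval was 0.35 on the log2 scale, which limits what can be detected. None of the alternatives but 1 called a lysosomal gene at the adjusted threshold. The exception, the GC correction with the replicate block, called 1 gene lower, MITF. The median log2 fold change of the 42 genes lay between 0.042 and 0.14 with any library left out, the lowest without CLs-2 and the highest without CLs-1.

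Over all tested genes, the 2 called higher became 58 with no filter and 15 with DESeq2, and 1 to 3 with a library left out. The 11 called lower became 6 with library totals alone, 113 with no filter, 89 with DESeq2, 18 with the GC correction, and 2 to 6 with a library left out.

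At an unadjusted p under 0.05, the 3 lysosomal genes that were higher became 5 with library totals alone and 5 with the GC correction (2.81% and 2.87% of all tested genes). They became 1 to 3 with a library left out, 1 without CLs-2, where 1.63% of all tested genes were higher. In the wider list, the 3 higher genes became 5 with no filter (2.74% of all tested genes) and 11 of 89 with the GC correction (2.87%). They became 2 to 11 with a library left out, 2 without Control-2 (1.56% of all) and 11 of 90 without CLs-1 (3.55%). The 2 lower genes became 1 with library totals alone, 1 with DESeq2 and 1 with the GC correction (3.12%, 2.03% and 4.42% of all). They became 0 to 5 with a library left out, 0 without Control-1 (4.04% of all) and without CLs-2 (3.06%), and 5 without CLs-1 (5.47%). Of lysosomal genes whose groups did not overlap, the 6 higher became 7 to 10 with a library left out, 7 without Control-1 (10.7% of all tested genes) and 10 without CLs-1 (13.7%). The 2 lower became 1, MITF, with the GC correction (6.35%).

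The groups share replicate numbers and the labels tie them to nothing else. Deviations of same-numbered samples correlated at 0.106, 0.112 and 0.320 on log2(CPM + 0.5) and at 0.111, 0.0987 and 0.305 on edgeR's log CPM. Of the samples, 6 of 6 correlated best with their own number, a hint from the data and not from the design. These 6 are not independent, because the samples share correlations and deviations within a group cancel out. The pairing was therefore not taken as given. With the replicate block, calls over all genes became 12 higher and 56 lower, the wider list had 5 higher genes at an unadjusted p under 0.05 (3.10% of all tested genes), CTSZ moved to -0.033, and the MITF adjusted p was 0.0767 by edgeR. With the block and the GC correction together, calls over all genes became 15 higher and 68 lower. In that setting 6 of 42 lysosomal and 15 of 89 wider genes were higher at an unadjusted p under 0.05 (4.03% of all tested genes). There 1 lysosomal gene had non-overlapping groups with CLs lower (6.35% of all tested genes). The block alone changed no call of a lysosomal gene.

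Signs turned in 22 of the 42 genes in at least 1 alternative, none of them called, and their main log2 fold changes were at most 0.19 in size. Of the genes named by rule, 5 did so. With a library left out, the log2 fold change ranged from -0.017 to 0.13 in LAMP1 (-0.00118 without Control-3), from -0.14 to 0.22 in CTSZ (-0.087, -0.027 and -0.10 without Control-1, Control-2 and CLs-2), from -0.044 to 0.18 in GUSB, from -0.30 to 0.017 in TFEB, and from -0.073 to 0.19 in ATP6AP1 (-0.049 without Control-3). With DESeq2, CTSZ was at -0.000755. The cause of these shifts was not tested. MITF stayed below 0 throughout, from -0.78 to -0.46 with a library left out.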
